A study of Mus musculus with 23 samples.

Results

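The genes described here are the 37 genes encoded by mouse mitochondrial DNA, of 55449 genes in the deposited table. They were chosen by symbol, as all genes whose symbol begins with mt-, and no measured value entered the rule. The choice was made with earlier results of these data known. By the GENCODE annotation they are 13 messenger RNA (mRNA) genes, 2 ribosomal RNA (rRNA) genes and 22 transfer RNA (tRNA) genes, all on the mitochondrial chromosome of GRCm38. The mRNAs and rRNAs, 15 genes, had enough counts to be tested in every comparison, while the tRNAs had almost none.

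Mitochondrial DNA is a small circle present in many copies per cell. Both of its strands are transcribed into long precursors that are cut at the tRNAs, which releases the mRNAs and rRNAs between them. The mRNAs encode core subunits of respiratory complexes I, III and IV and of the ATP synthase, also called complex V, and the rRNAs form the ribosome that translates them. All other subunits of these complexes, and all of complex II, are encoded in the nucleus. In the colon, absorptive epithelial cells oxidize short-chain fatty acids in their mitochondria.

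RNA was sequenced from 23 colon libraries of male C57BL/6 mice of genotype Cdx2Apcf/w, 6 to 8 weeks old at the start and fed a diet with 60% of its energy from fat (HFD). Cre recombinase under the Cdx2 promoter deletes 1 floxed Apc allele, Apc being a tumor suppressor, in colon epithelium, so that all groups carry the deletion and none is wild type. Mice received an antibiotic cocktail and then either BF BSHlow, Bacteroides fragilis 638R with low bile salt hydrolase (BSH) activity, or BF BSHhigh, the same strain with an inserted bsh gene, for 2 or 12 weeks. The study asked how microbial BSH acts on colon tumors. There were 4 libraries each of BF BSHlow and BF BSHhigh normal colon at 2 weeks, 4 each of non-tumor colon at 12 weeks, and 4 of BF BSHlow and 3 of BF BSHhigh tumors at 12 weeks. The sources differ on the dosing, 2 times a week in the labels and every 3 days in the methods, and on the library kit, for total RNA in the labels and for mRNA in the methods. How many mice gave each library is not stated, so that p-values measure the spread between these libraries. The columns of the BF BSHhigh tumors carry no names of their own in the deposited table and were assigned as a group through the values listed for that group in the study's supplementary data. These libraries are called a, b and c here. Total counts per library were between 12401388 and 15898917 at 2 weeks, between 13330888 and 17103225 in non-tumor colon and between 15271869 and 17903008 in tumors. All 7 listed epithelial markers were detected in every group.

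A near-identical stretch of nuclear DNA exists for 7 of the 13 mRNAs, and how far their counts depended on it differed between genes. A run of 4663 bases on the minus strand of chromosome 1 (chr1:24611535-24616197, GRCm38) holds 7 annotated pseudogenes that align to mt-Nd4, mt-Nd4l, mt-Nd3, mt-Co3, mt-Atp6, mt-Co2 and the end of mt-Co1. They matched over at least 200 bases with at least 99% identity, a limit chosen after the data were seen, and 5 of the 7 matched without a mismatch. RSEM, the program that made the counts, shares reads that fit several genes among them, so that mitochondrial reads can be counted at the nuclear copy. The first 60 aligned bases of 3 pairs follow, 5′ to 3′, from the GRCm38 transcripts of GENCODE, because they show how little separates gene and copy. Capitals mark the only bases that differ.
mt-Co2 (chrM:7013-7072, plus strand): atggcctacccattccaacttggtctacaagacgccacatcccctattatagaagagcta
Gm28661 (chr1:24615506-24615565, minus strand): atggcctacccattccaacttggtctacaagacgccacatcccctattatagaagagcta
mt-Nd3 (chrM:9459-9518, plus strand): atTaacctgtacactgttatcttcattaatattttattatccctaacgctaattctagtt
Gm28438 (chr1:24613060-24613119, minus strand): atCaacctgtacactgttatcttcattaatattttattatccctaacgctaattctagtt
mt-Co1 (chrM:6390-6449, plus strand): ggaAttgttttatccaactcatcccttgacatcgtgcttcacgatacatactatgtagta
Gm29216 (chr1:24616129-24616188, minus strand): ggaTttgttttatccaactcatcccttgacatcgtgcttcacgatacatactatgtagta
Counting from 1 at the first base of the mitochondrial gene, with its base first, the only differences between gene and copy over the aligned length are T3C for mt-Nd3 and A1066T for mt-Co1. For mt-Co2, 681 of its 684 bases are in the copy and none differs.

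Most reads of 5 genes were counted at the copy. The mitochondrial gene held a median of 2.87% of the counts of gene and copy together for mt-Co2 over the 23 libraries, 4.70% for mt-Atp6, 7.11% for mt-Co3, 12.1% for mt-Nd3 and 26.7% for mt-Nd4l. In contrast, mt-Co1, of which only the last 483 bases have a copy, held 87.7%, and mt-Nd4 held 99.95% although 876 of its 1378 bases are copied without a mismatch. The split moved between libraries, for mt-Nd4l between 18.8 and 38.3%, so that the counts at these genes vary with the split as well as with the RNA. Whether any of these reads came from transcripts of chromosome 1 was not tested. Values are therefore given as deposited and, where it matters, with the counts of each copy added to its gene. Counts of mt-Nd2 were not whole in 11 of 23 libraries although no copy met the limit, so its values are uncertain in the same way. Neighboring genes also share bases, the longest run being the 43 bases (chrM:7927-7969) at which mt-Atp8 ends and mt-Atp6 starts, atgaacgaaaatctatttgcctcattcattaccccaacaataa.

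**Figure D1:**
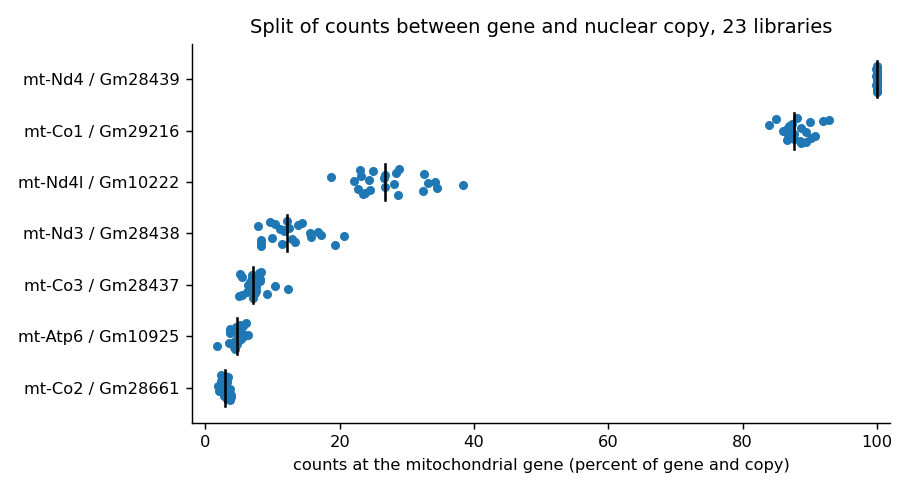
Counts at each mitochondrial gene as a percent of the counts of the gene and its nuclear copy, with 1 point per library (23 libraries) and a line at the median. The medians run from 2.87% for mt-Co2 to 99.95% for mt-Nd4.

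Mitochondrial genes took the largest share of counts in normal colon at 2 weeks, less in non-tumor colon at 12 weeks and least in tumors. At 2 weeks the share was 11.1, 15.1, 10.4 and 7.30% in the BF BSHlow libraries and 15.9, 9.20, 8.53 and 11.8% in the BF BSHhigh libraries. In non-tumor colon it was 4.95, 5.41, 4.84 and 5.46% with BF BSHlow and 6.85, 4.54, 4.43 and 4.50% with BF BSHhigh, replicate 1 being the high one of the last group. In tumors it was 2.83, 2.55, 2.48 and 3.29% with BF BSHlow and 2.86, 2.77 and 2.72% with BF BSHhigh. No library of one tissue class reached into the next, whereas BF BSHlow and BF BSHhigh libraries overlapped within each class. With the copies included, the share was between 11.2 and 26.0% at 2 weeks, between 7.35 and 10.7% in non-tumor colon and between 4.28 and 5.68% in tumors, in the same order and again without overlap. The 95% Wilson interval of a library's share was at most 0.0372 percentage points wide, which covers counting error only. In bulk tissue, fewer cells rich in mitochondria and less mitochondrial RNA per cell cannot be told apart.

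**Figure D2:**
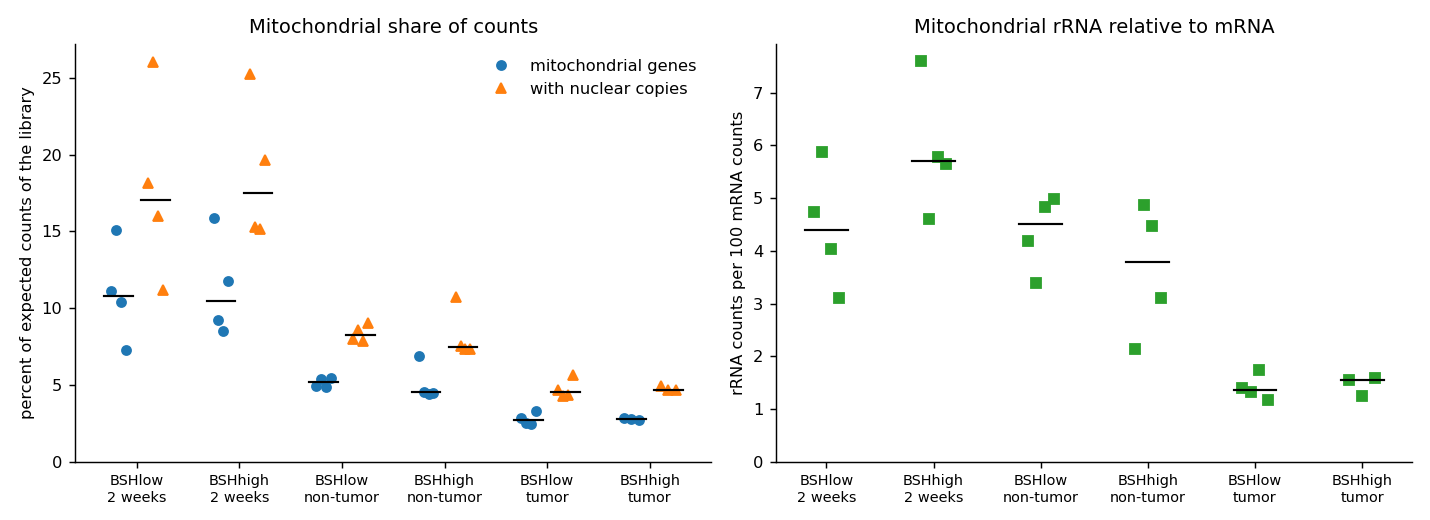
Left, percent of a library's expected counts at the 37 mitochondrial genes (circles) and with the 7 nuclear copies included (triangles); right, mitochondrial rRNA counts per 100 mitochondrial mRNA counts (squares), each with 1 point per library and a line at the group median. The tumor libraries lie lowest in both panels, between 2.48 and 3.29% and between 1.16 and 1.74 rRNA counts.

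Markers of other cell types moved with these classes. The summed level of 5 markers of differentiated colonocytes was between 10900.5 and 23109 CPM (counts per 1000000 counts of a library, with TMM scaling over the 23 libraries) at 2 weeks, between 1624 and 4269 CPM in non-tumor colon and between 51.4 and 693 CPM in tumors. That of 9 smooth muscle markers was between 165 and 348 CPM at 2 weeks, between 1758 and 9491 CPM in non-tumor colon and between 247 and 421 CPM in tumors. The colonocyte sum thus had the same order of tissues as the mitochondrial share, but it rests on its abundant members. Single markers are called lower or higher here at an adjusted p under 0.05 in edgeR. At 12 against 2 weeks 2 of 5 markers were lower in each strain. Of all genes, 20.7% were lower with BF BSHlow and 23.9% with BF BSHhigh. The median log2 fold change of the 5 markers was 0.07 and the highest 0.69 in BF BSHlow mice, and -0.65 and -0.25 in BF BSHhigh mice. In tumors against non-tumor colon 5 of 5 were lower with BF BSHlow and 4 of 5 with BF BSHhigh. Of all genes, 32.2% were lower and 33.3% higher in BF BSHlow tumors, and 27.2% and 29.4% in BF BSHhigh tumors. These shares also stand beside the counts that follow. The 7 epithelial markers summed to between 13275 and 18000.4 CPM at 2 weeks, between 9786 and 13154 CPM in non-tumor colon and between 4802 and 8537 CPM in tumors, also in the order of the mitochondrial share and without overlap. Of them 6 were lower and 1 higher in BF BSHlow tumors, 5 and 1 in BF BSHhigh tumors, and 3 and 4 were lower at 12 against 2 weeks. The 6 fibroblast markers summed to between 47.7 and 230.2, between 314 and 3259.7 and between 1492 and 3457 CPM in the same order. The 4 red blood cell markers summed to between 22.6 and 109.9, between 119.6 and 2429.7 and between 270.2 and 3468 CPM, and the 5 leukocyte markers to between 50.3 and 172, between 126 and 699.6 and between 228 and 754 CPM. Single members of these lists did not all follow the sums. Against non-tumor colon, 0 leukocyte markers were higher and 2 lower in BF BSHlow tumors, with a median log2 fold change of -1.24. In BF BSHhigh tumors 0 were higher and 1 lower, with a median of 0.57. Fibroblast markers were higher for 2 and lower for 1 in BF BSHlow tumors, and for 3 and 1 in BF BSHhigh tumors. Red blood cell markers were higher for 4 and for 0. For 3 endothelial markers the sums were between 4.57 and 43.3, between 36.1 and 81.1 and between 115 and 136 CPM, and for 4 neuronal and glial markers between 1.06 and 3.50, between 9.52 and 24.5 and between 2.34 and 5.06 CPM. No marker of these lists was at 0 in all libraries of a group. The part of cell composition in the results below was not tested.

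Among the mitochondrial genes themselves, cytochrome oxidase led. Per kilobase of gene and with copies added, mt-Co1 had the highest level in each of the 23 libraries, with a median of 19005 CPM per kb. Then came mt-Co3, mt-Atp6 and mt-Co2, with medians of 12702, 12396 and 13349.6 CPM per kb, whose order changed between groups, mt-Atp6 being above mt-Co2 in 8 of 23 libraries. Each of the next steps held in every library, from these to mt-Atp8 (9453 CPM per kb), mt-Cytb (5554), mt-Nd1 (3492) and mt-Nd4 (2827). The other complex I mRNAs mt-Nd3, mt-Nd2, mt-Nd5 and mt-Nd4l had medians between 1592 and 1796 CPM per kb and changed places between libraries. By their medians over the 23 libraries the rRNAs were lower, with 877 CPM per kb for mt-Rnr2 and 609 for mt-Rnr1. This order did not hold in every group. In BF BSHhigh colon at 2 weeks mt-Rnr2 had a mean of 3914 CPM per kb. That was above mt-Nd2 (3552), mt-Nd5 (3205) and mt-Nd4l (2501) and below mt-Nd3 (4826). The lowest mRNA in all libraries was mt-Nd6, with a median of 64.0 CPM per kb. It is the only mRNA gene of the minus strand. The methods name a stranded kit, but the strand setting of the counting is not given in the sources used here. Whether its counts include reads of opposite transcripts is therefore not known. Shares of mt-Co1 among the counts of the 13 mRNAs were also taken with copies added. They were between 36.9% and 44.1% at 2 weeks, between 34.3% and 40.0% in non-tumor colon and between 31.0% and 34.2% in tumors.

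**Figure D3:**
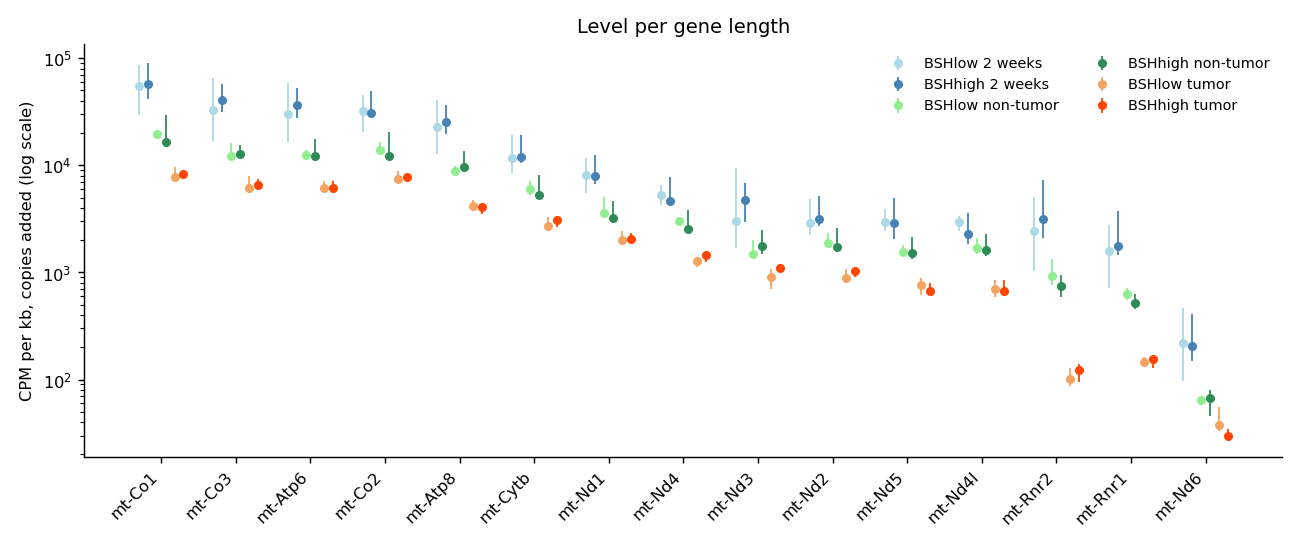
Level of the 2 rRNAs and 13 mRNAs in CPM per kb of gene length on a log axis, with the counts of the nuclear copies added; points are group medians and bars run from the lowest to the highest library of a group (n = 4, and 3 for BF BSHhigh tumors). Every gene is lowest in tumors and highest at 2 weeks by its group medians, and mt-Co1 leads in each group.

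Of the 22 tRNA genes, 16 had 0 counts in all 23 libraries. The other 6 had 13 counts in all, at most 2 in a library, spread over 7 libraries. The most counted were mt-Tm, the tRNA of methionine, at 0 in 19 libraries, mt-Tl1, a leucine tRNA, at 0 in 21, and mt-Ts1, a serine tRNA, at 0 in 22. A count of 0 allows up to 3 counts, which is between 0.168 and 0.242 CPM in these libraries. No comparison of tRNAs was possible with so few counts.

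Tumors had lower mitochondrial RNA than non-tumor colon in mice with either strain. In BF BSHlow mice 14 of the 15 genes tested were lower in tumors, where 32.2% of all 16454 genes tested were lower, and 11 were lower with a log2 fold change under -1, where 19.5% of all genes were. With BF BSHhigh 14 were lower, against 27.2% of all genes, and 11 past the fold limit, against 14.8% (quasi-likelihood test of edgeR, Benjamini-Hochberg adjusted p under 0.05, 15 libraries of 12 weeks in one fit). None was higher in either. The median log2 fold change of the 15 genes was -1.12 in BF BSHlow and -1.24 in BF BSHhigh mice, against a median of 0.04 over all genes in each. The gene that did not pass was mt-Co2 in both, and with the copies added 15 of 15 were lower in each strain, with medians of -1.08 and -1.09. Scaling by library size alone moved the median of all genes to 0.37 and 0.35 and left 13 and 13 genes lower, 3 and 5 of them past the fold limit. Without replicate 1 of BF BSHhigh non-tumor colon, 7 were past the fold limit in BF BSHhigh mice. With that scaling 7727 genes were higher and 3807 lower in BF BSHlow tumors, in place of 5485 and 5299, and 7191 and 3010 in BF BSHhigh tumors, in place of 4832 and 4481.

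The rRNAs fell most. The large ribosomal RNA mt-Rnr2 (chrM:1094-2675) had 1387, 1215, 1527 and 2094 CPM in BF BSHlow non-tumor colon and 161, 139, 201 and 159 CPM in BF BSHlow tumors. In BF BSHhigh mice it had 1081, 1490.1, 1291 and 926 CPM in non-tumor colon and 219, 149.6 and 193 CPM in tumors. The lowest non-tumor library was thus more than 4 times the highest tumor. The log2 fold change, given here with its standard error (SE), was -3.26 (SE 0.21, adjusted p = 3.23e-08) in BF BSHlow mice, a level 9.57-fold lower, and -2.69 (SE 0.23, adjusted p = 9.7e-07) in BF BSHhigh mice (edgeR). The small ribosomal RNA mt-Rnr1 (chrM:70-1024) had 582, 523, 686 and 611 CPM in BF BSHlow non-tumor colon against 131, 139, 156 and 138 CPM in tumors. With BF BSHhigh it had 452, 595, 548 and 433 against 151, 122 and 148 CPM. The groups did not overlap, and the log2 fold changes were -2.11 (SE 0.13, adjusted p = 1.96e-08) and -1.86 (SE 0.14, adjusted p = 2.94e-07) in the edgeR test.

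Within a library, rRNA fell relative to mRNA, a ratio that no scaling affects. There were between 2.14 and 4.98 rRNA counts per 100 mRNA counts in non-tumor colon and between 1.16 and 1.74 in tumors, without overlap. Counts of mt-Rnr2 were between 2.14 and 3.43 times those of mt-Rnr1 in non-tumor colon and between 0.998 and 1.45 times in tumors, so that the rRNAs also fell unequally. How much rRNA enters a library depends on the preparation, which the labels and the methods give differently, and its part in these values was not tested. A list of 5 nuclear RNAs without a long poly(A) tail summed to between 3.52 and 7.23 CPM in non-tumor colon and between 3.47 and 7.96 CPM in tumors. These sums rest on few counts. In each non-tumor group and in BF BSHlow tumors 2 of the 5 were at 0 in all libraries, and in BF BSHhigh tumors 1 was. Only 1 had enough counts to be tested. Its log2 fold changes of -0.08 with BF BSHlow and 0.44 with BF BSHhigh did not pass.

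Complex I, which takes electrons from NADH, has 7 mitochondrially encoded subunits, and all 7 mRNAs were lower in tumors with both strains. The level of mt-Nd1 (chrM:2751-3707) was 3342, 3482, 3182 and 4839 CPM in BF BSHlow non-tumor colon and 1943, 1887, 1822 and 2333 CPM in tumors. With BF BSHhigh it was 4414, 2978, 2894 and 3202 and 2256, 1975 and 1825 CPM. Neither pair of groups overlapped, with log2 fold changes of -0.91 (SE 0.17, adjusted p = 0.000319) and -0.75 (SE 0.19, adjusted p = 0.00371) (edgeR). For mt-Nd4 (chrM:10167-11544) the values were 3769.9, 4379, 3895 and 4481 against 1879, 1656, 1543 and 1851 CPM with BF BSHlow. With BF BSHhigh they were 5297, 3592, 3437 and 3488 against 2069.7, 1987 and 1721 CPM, and the log2 fold changes were -1.27 (SE 0.15, adjusted p = 4.4e-06) and -1.04 (SE 0.16, adjusted p = 0.000100) by edgeR. Those of mt-Nd5 (chrM:11742-13565) were -1.08 and -1.24, and those of mt-Nd2 were -1.11 and -0.92. The minus strand gene mt-Nd6 (chrM:13552-14070) had 33.2, 33.2, 30.7 and 35.8 CPM in BF BSHlow non-tumor colon and 19.8, 19.3, 17.2 and 28.5 CPM in tumors. Its decrease was the smallest of the called genes there, -0.66 (SE 0.18, adjusted p = 0.00525) against -1.09 (SE 0.20, adjusted p = 0.000397) in BF BSHhigh mice (edgeR). In edgeR, the call of mt-Nd6 in BF BSHlow mice was lost with library size scaling (adjusted p = 0.122) and with all 23 libraries in the fit (adjusted p = 0.113).

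The short complex I genes mt-Nd3 (chrM:9459-9806) and mt-Nd4l (chrM:9877-10173) had most of their counts at their copies. By edgeR on the deposited counts, mt-Nd3 had log2 fold changes of -1.24 (SE 0.33, adjusted p = 0.00442) and -1.05 (SE 0.36, adjusted p = 0.0229), and its BF BSHhigh groups overlapped. With the copy added they were -0.86 (SE 0.18, adjusted p = 0.000617) and -0.78 (SE 0.19, adjusted p = 0.00341) in the same edgeR test, and neither pair overlapped. With the copy, both the change and its error were smaller. Without replicate 1 of BF BSHhigh non-tumor colon, or replicate a or c of the tumors, the call of mt-Nd3 as deposited was lost in BF BSHhigh mice (adjusted p between 0.0658 and 0.0981, edgeR), as it was with library size scaling (0.0780) and with all 23 libraries in the fit (0.0693). The log2 fold changes of mt-Nd4l went from -1.24 and -1.61 to -1.33 and -1.28 once the copy was added.

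Complex III passes electrons to cytochrome c and has 1 mitochondrially encoded subunit, cytochrome b. Its mRNA, mt-Cytb (chrM:14145-15288), has no copy within the limit above. It had 6353, 7302, 6055 and 8236 CPM in BF BSHlow non-tumor colon and 3155, 3066, 2979.8 and 3776 CPM in BF BSHlow tumors. In BF BSHhigh mice it had 9242, 5948, 5707 and 6125 CPM in non-tumor colon and 3775, 3514 and 3063 CPM in tumors. All tumors were below all non-tumor libraries, with log2 fold changes of -1.12 (SE 0.17, adjusted p = 4.83e-05) and -0.98 (SE 0.19, adjusted p = 0.000517) (edgeR).

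Complex IV, cytochrome c oxidase, passes electrons to oxygen, and its 3 mitochondrial mRNAs differed in how much the copies changed their values. The catalytic subunit gene mt-Co1 (chrM:5328-6872) had 25605, 27854, 24927 and 27011 CPM in BF BSHlow non-tumor colon and 9813, 10822, 10610.1 and 12891 CPM in tumors. With BF BSHhigh it had 40444, 22501, 21447 and 22105 and 11850.5, 10266 and 11268 CPM. The log2 fold changes were -1.27 (SE 0.20, adjusted p = 5.55e-05) and -1.26 (SE 0.21, adjusted p = 0.000211), and -1.30 and -1.28 with the copy added (edgeR).

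As deposited, mt-Co2 (chrM:7013-7696) had 216, 266, 166 and 357 CPM in BF BSHlow non-tumor colon and 137, 183, 142 and 226 CPM in tumors, and the groups overlapped. With BF BSHhigh the levels were 517, 178, 161 and 215 and 187, 156 and 195 CPM, again with overlap. Its log2 fold changes of -0.57 (SE 0.34, adjusted p = 0.151) and -0.58 (SE 0.37, adjusted p = 0.188) did not pass the edgeR test. Without replicate 1 of BF BSHhigh non-tumor colon, which leaves a smaller shared spread, the first passed (adjusted p = 0.0372, edgeR). Its copy Gm28661 held far more counts, between 7608 and 13424 CPM in non-tumor colon and between 4649 and 5821 CPM in tumors. Together, gene and copy had 9131, 9755, 8692 and 11251 CPM in BF BSHlow non-tumor colon and 4785, 4903, 5245 and 6047 CPM in tumors, without overlap. The sums in BF BSHhigh mice were 13942, 8352, 7769 and 8205 and 5527, 4939 and 5311 CPM. With them, mt-Co2 was lower in tumors in both strains, by log2 fold changes of -0.91 (SE 0.18, adjusted p = 0.000496) and -0.87 (SE 0.20, adjusted p = 0.00184) (edgeR).

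For mt-Co3 (chrM:8607-9390) the copy changed the size of the decrease in each strain. As deposited the gene had 721, 650.4, 658 and 804 CPM in BF BSHlow and 1246, 752, 687 and 1177 CPM in BF BSHhigh non-tumor colon. In tumors it had 333, 282, 374 and 574 CPM and 323, 252 and 367 CPM. The log2 fold change was -0.87 (SE 0.23, adjusted p = 0.00447) with BF BSHlow and -1.63 (SE 0.26, adjusted p = 0.000138) with BF BSHhigh, and with the copy Gm28437 added it was -1.02 (SE 0.16, adjusted p = 6.24e-05) and -0.97 (SE 0.17, adjusted p = 0.000322) (edgeR). The difference between strains as deposited, -0.75 (SE 0.34, adjusted p = 0.503), did not pass the edgeR test.

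The 2 mitochondrial genes of the ATP synthase overlap. Counts of mt-Atp8 were whole in all 23 libraries, so no sharing of reads between the 2 genes was seen at mt-Atp8. As deposited, mt-Atp6 (chrM:7927-8607) had 309, 488, 529 and 549.9 CPM in BF BSHlow non-tumor colon and 181, 147, 201 and 87.1 CPM in tumors, with a log2 fold change of -1.62 (SE 0.24, adjusted p = 4.14e-05) by edgeR. The log2 fold change in BF BSHhigh mice was -1.26 (SE 0.26, adjusted p = 0.00107) (edgeR). With Gm10925 added, the log2 fold changes were -1.05 and -1.09. The short gene mt-Atp8 (chrM:7766-7969), which has no copy within the limit, had 1999, 1708, 1624 and 1928 CPM in BF BSHlow non-tumor colon and 852, 833, 822 and 961 CPM in tumors. Its log2 fold changes were -1.08 (SE 0.14, adjusted p = 9.3e-06) and -1.41 (SE 0.15, adjusted p = 4.7e-06) by edgeR, and its groups did not overlap in either strain.

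**Figure D4:**
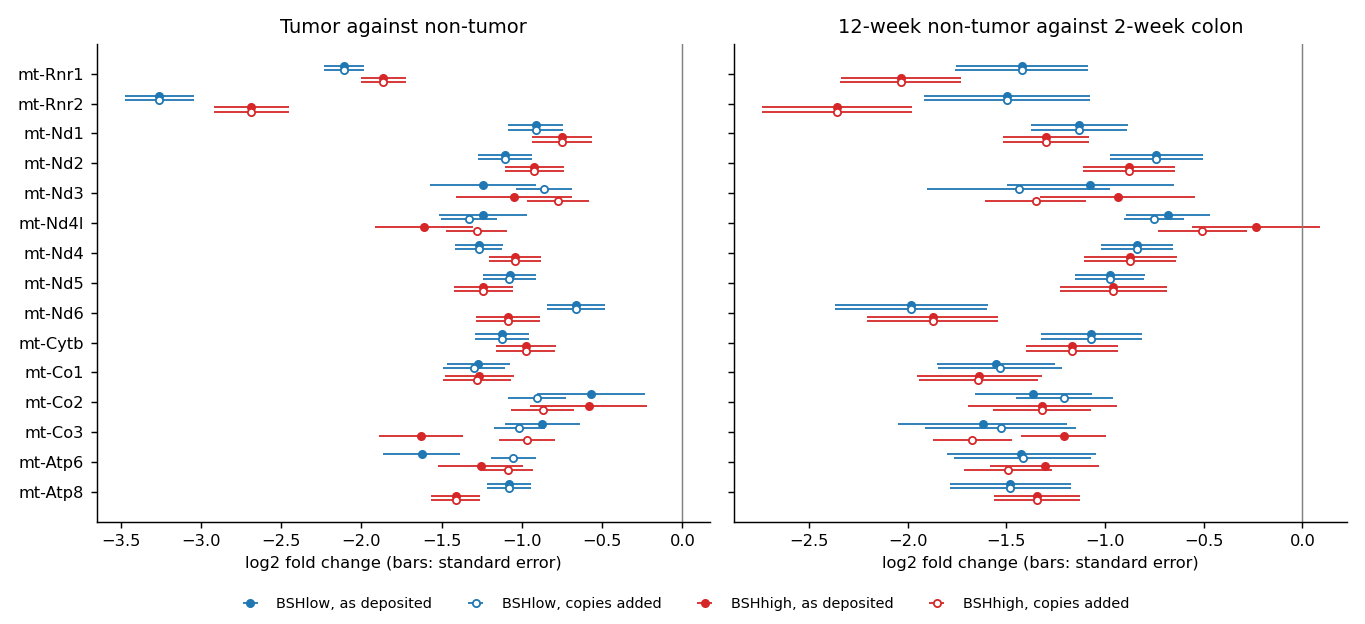
Log2 fold changes with standard errors (bars) of the 15 genes in tumors against non-tumor colon (left) and in 12-week non-tumor against 2-week colon (right), in BF BSHlow (blue) and BF BSHhigh mice (red), as deposited (filled) and with copies added (open). All 60 values of a panel lie below 0, mt-Rnr2 at the lowest in tumors.

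Nuclear genes of the same complexes were also lower in tumors. Of 79 nuclear subunits tested, 75 were lower and 2 higher in BF BSHlow tumors, where 32.2% of all genes were lower, with a median log2 fold change of -0.91. In BF BSHhigh tumors 65 were lower and 2 higher, where 27.2% of all genes were lower, with a median of -0.58. The higher genes were Cox6b2 and Ndufa4 in both, named after their values were seen. The nuclear medians by complex in BF BSHlow tumors were -0.74 for 36 genes of complex I, -1.07 for 9 of complex III, -1.15 for 14 of complex IV and -0.84 for 16 of complex V. Those of the mitochondrial mRNAs of the same complexes, copies added, were -1.08, -1.12, -1.02 and -1.07. In BF BSHhigh tumors the nuclear medians were -0.50, -0.77, -0.79 and -0.57, and the mitochondrial ones -1.04, -0.98, -0.97 and -1.25. Complex II, which has no mitochondrial gene, had nuclear medians of -1.14 and -0.89 over 4 genes. The difference between mitochondrial and nuclear genes was not tested.

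The 4 nuclear subunits named here were lower in tumors with both strains. Sdha of complex II had 474 ± 77.9 CPM (SD, n = 4) in BF BSHlow non-tumor colon and 186 ± 13.7 CPM (SD, n = 4) in tumors, with a log2 fold change of -1.37 (SE 0.12, adjusted p = 3.69e-07), and -0.90 in BF BSHhigh mice (edgeR). Cox4i1 of complex IV changed by -1.18 and -0.78, Uqcrc2 of complex III by -1.07 and -0.84, and Atp5a1 of the ATP synthase by -0.84 and -0.56, all past the edgeR test.

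Nuclear genes that copy and express mitochondrial DNA moved in both directions. Of all genes, 33.3% were higher in BF BSHlow and 29.4% in BF BSHhigh tumors, beside the 32.2% and 27.2% lower. Of 34 tested, 6 were higher and 8 lower in BF BSHlow tumors, with a median log2 fold change of 0.00, and 7 were higher and 8 lower in BF BSHhigh tumors, with a median of -0.04. Tfam, which packages mitochondrial DNA and starts its transcription, had log2 fold changes of -0.34 (SE 0.10, adjusted p = 0.00619) and -0.28 (SE 0.10, adjusted p = 0.0363) in edgeR. Polrmt, the mitochondrial RNA polymerase, rose by 0.47 (SE 0.09, adjusted p = 0.000500) and 0.31 (SE 0.10, adjusted p = 0.0155) on the log2 scale (edgeR), and Twnk, the mitochondrial DNA helicase, by 0.54 and 0.64. Lrpprc and Slirp, whose products form a complex that stabilizes mitochondrial mRNAs, had log2 fold changes between -0.12 and -0.01 that did not pass the edgeR test (adjusted p between 0.311 and 0.941).

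Ppargc1a, a coactivator of genes for mitochondria, had 83.6 ± 8.72 CPM (SD, n = 4) in BF BSHlow non-tumor colon and 18.1 ± 4.69 CPM (SD, n = 4) in tumors. Its log2 fold changes of -2.22 (SE 0.19, adjusted p = 2.48e-07) and -1.77 (SE 0.21, adjusted p = 9.59e-06) in edgeR were the lowest values among the 13 nuclear genes named here. Of 8 genes often used as measures of mitochondrial mass, 3 were higher and 4 lower in tumors with each strain, beside the shares of all genes given above. Citrate synthase, Cs, was lower, -1.35 (SE 0.13, adjusted p = 7.57e-07) and -0.97 (SE 0.14, adjusted p = 6.61e-05), as was the outer membrane channel Vdac1, -0.82 and -0.59 (edgeR). The import receptor Tomm20 was higher, 0.49 (SE 0.09, adjusted p = 0.000240) and 0.46 (SE 0.10, adjusted p = 0.000952) by edgeR.

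**Figure D5:**
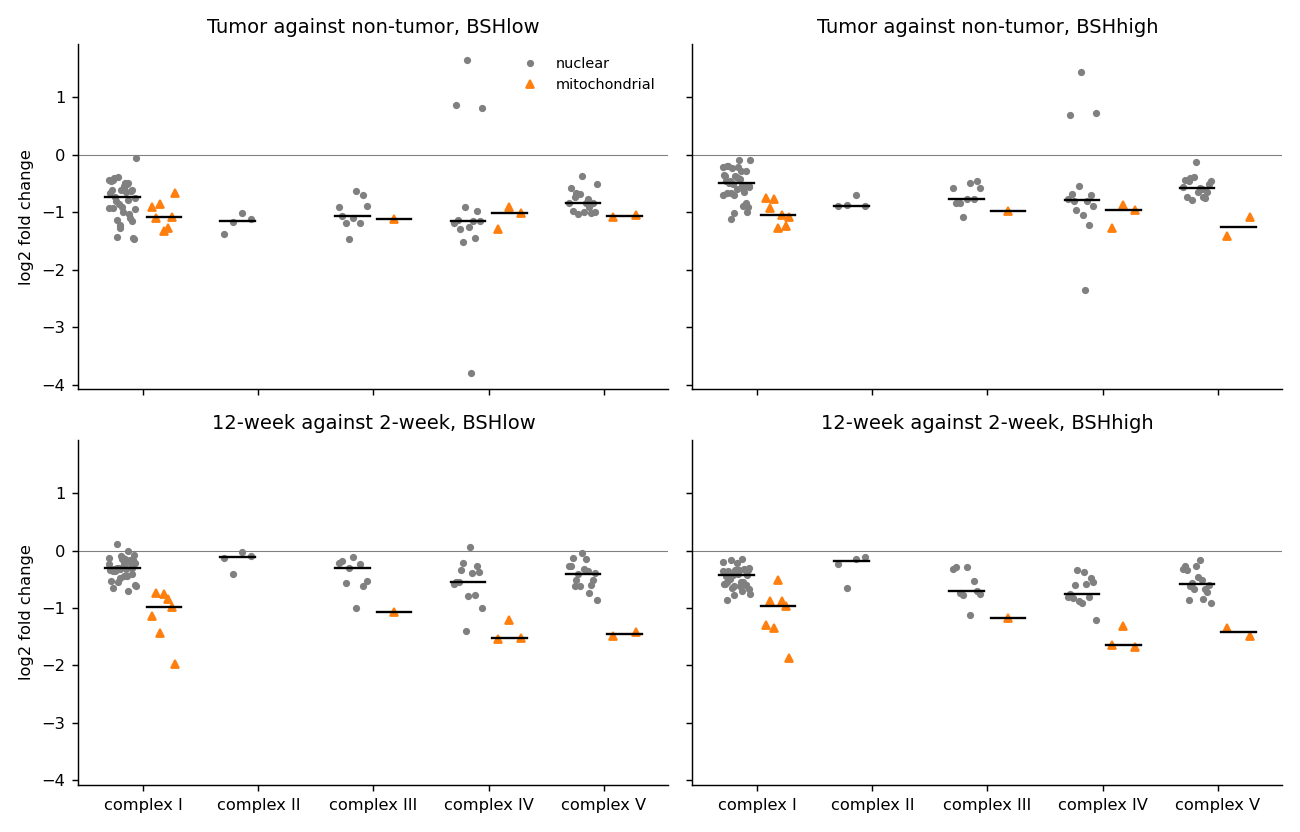
Log2 fold changes of nuclear (grey circles) and mitochondrial (orange triangles, copies added) genes of respiratory complexes I to V, 1 point per gene, with lines at the medians, for tumor against non-tumor colon (top) and 12-week non-tumor against 2-week colon (bottom). In BF BSHlow tumors the nuclear median of complex IV was -1.15 and the mitochondrial one -1.02, while at 12 against 2 weeks they were -0.55 and -1.53.

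The decrease in tumors was not shown to differ between strains. In the interaction term of the same fit, 0 of the 15 genes passed an adjusted p of 0.05, against 0.991% of all 16454 genes, and 0 passed with DESeq2 or limma-voom. The smallest adjusted p was 0.503, for mt-Co3, the only gene with an unadjusted p under 0.05, and its difference of -0.75 (SE 0.34, edgeR) became 0.05 (SE 0.23) with the copy added. With copies added, 0 genes had an unadjusted p under 0.05, and the differences of the 15 genes, BF BSHhigh minus BF BSHlow, lay between -0.43 and 0.57 on the log2 scale. Their intervals of 2 standard errors reached from -0.96 (mt-Nd6) to 1.15 (mt-Rnr2), the outermost bounds over the 15 genes. Each single gene had a narrower interval, for mt-Rnr1 from -0.11 to 0.60. Differences within the interval of a gene remain possible for that gene.

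Between BF BSHhigh and BF BSHlow mice, no mitochondrial gene passed the test in any tissue. In tumors 0 of 15 genes were called, against 0.509% of all 15325 genes tested, and the smallest adjusted p was 0.436 (edgeR). In non-tumor colon 0 of 15 were called, against 0% of 14933 genes, and at 2 weeks 0 of 15, against 0.00727% of 13752 genes. No member had an unadjusted p under 0.05 in these 3 comparisons, and DESeq2 and limma-voom also called 0. In tumors with copies added, the log2 fold changes lay between -0.42 (mt-Nd6) and 0.29 (mt-Nd3), and their intervals of 2 standard errors between -0.81 and 0.60. For mt-Nd3, gene and copy had 287, 241, 340.5 and 374 CPM in BF BSHlow and 389, 385 and 377 CPM in BF BSHhigh tumors. These groups did not overlap, but the log2 fold change of 0.29 (SE 0.15, adjusted p = 0.495) did not pass the edgeR test. The summed colonocyte markers were between 51.4 and 134 CPM in BF BSHlow and between 142 and 693 CPM in BF BSHhigh tumors, without overlap, and 2 of the 5 were higher with BF BSHhigh.

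In non-tumor colon the intervals of the 15 genes with copies added reached from -0.78 to 0.57, and at 2 weeks from -0.96 to 1.49. Libraries of a 2-week group differed widely from each other. In BF BSHlow colon at 2 weeks mt-Rnr2 had 4400.3, 8084, 3264 and 1635 CPM, and in BF BSHhigh colon it had 11488, 3302, 4098 and 5878 CPM. The values of either group spanned more than 3-fold, and the log2 fold change of 0.50 (SE 0.50, adjusted p = 0.901) did not pass the test (edgeR).

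Non-tumor colon at 12 weeks had less mitochondrial RNA than normal colon at 2 weeks. In BF BSHlow mice 14 of 15 genes were lower at 12 weeks, where 20.7% of all 14555 genes were, and 10 were past the fold limit, where 7.59% were. With BF BSHhigh 13 were lower, against 23.9% of 14638 genes, and 10 past the fold limit, against 7.34% (edgeR). With copies added the numbers lower were 15 and 14. The median log2 fold changes were -1.36 and -1.30, and -1.42 and -1.35 with copies. With library size scaling, which moved the median of all genes to 0.22 and 0.30, 12 and 13 were lower and 8 and 8 past the fold limit. Over all genes it gave 4704 higher and 1635 lower in BF BSHlow mice, in place of 3260 and 3010, and 6223 and 1786 in BF BSHhigh mice, in place of 3973 and 3503. Age, time on the diet and time of colonization differ together between these groups, as do the marker sums given above, and cannot be told apart.

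The order of the genes differed from that in tumors. The minus strand gene mt-Nd6 had 126, 242, 102 and 50.8 CPM in BF BSHlow and 213, 84.3, 76.9 and 127 CPM in BF BSHhigh colon at 2 weeks, all above the 12-week non-tumor libraries, which lay between 23.9 and 41.3 CPM. Its log2 fold changes were -1.98 (SE 0.39, adjusted p = 0.00290) and -1.87 (SE 0.33, adjusted p = 0.00139) by edgeR, the lowest of the mRNAs in both strains. The rRNA mt-Rnr2 changed by -1.50 (SE 0.42, adjusted p = 0.0171) and -2.36 (SE 0.38, adjusted p = 0.000826), and mt-Rnr1 by -1.42 (SE 0.34, adjusted p = 0.00767) and -2.03 (SE 0.31, adjusted p = 0.000585) (edgeR). For both rRNAs the BF BSHlow groups overlapped, replicate 4 at 2 weeks being within the 12-week range. Relative to mRNA, the rRNAs were between 3.10 and 7.60 counts per 100 at 2 weeks, which overlaps the non-tumor range given above. The 5 nuclear RNAs without a long poly(A) tail moved with the rRNAs here in BF BSHhigh mice, with sums between 10.4 and 15.1 CPM at 2 weeks and between 3.52 and 5.25 CPM at 12 weeks, without overlap. The only 1 of them tested was lower, with a log2 fold change of -1.44. In BF BSHlow mice the sums were between 2.67 and 15.8 and between 3.61 and 7.23 CPM and overlapped. The part of the preparation in the change of the rRNAs was not tested.

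For mt-Co1 the levels at 2 weeks were 81094, 112515, 71075 and 42199.7 CPM with BF BSHlow and 126286, 64428, 53681 and 89130.0 CPM with BF BSHhigh, and the log2 fold changes to 12 weeks -1.55 (SE 0.30, adjusted p = 0.00270) and -1.64 (SE 0.32, adjusted p = 0.00222) in edgeR. Cytochrome b, mt-Cytb, had 12119, 21769, 14456 and 9805 CPM with BF BSHlow and 22078, 11947, 12944 and 14195 CPM with BF BSHhigh at 2 weeks. Its log2 fold changes were -1.07 (SE 0.26, adjusted p = 0.00829) and -1.17 (SE 0.23, adjusted p = 0.00271) (edgeR). Among the complex I genes, mt-Nd3 as deposited did not pass in either strain, -1.07 (SE 0.42, adjusted p = 0.0662) and -0.94 (SE 0.39, adjusted p = 0.0711), and did with its copy added, -1.44 (SE 0.46, adjusted p = 0.0313) and -1.35 (SE 0.26, adjusted p = 0.00202) (edgeR). As deposited, the smallest decreases were those of mt-Nd4l, -0.68 (SE 0.21, adjusted p = 0.0280) and -0.24 (SE 0.32, adjusted p = 0.567) (edgeR). With its copy they were -0.75 (SE 0.15, adjusted p = 0.00332) and -0.51 (SE 0.23, adjusted p = 0.0870) (edgeR). With copies added, mt-Nd2 had the smallest decrease in BF BSHlow mice, -0.74 (SE 0.24, adjusted p = 0.03, edgeR). The calls of mt-Nd4l and mt-Nd2 in BF BSHlow mice were lost without single libraries, with adjusted p up to 0.0723 and 0.0804 (edgeR). Both were also lost with library size scaling (adjusted p = 0.102 and 0.0708, edgeR). That of mt-Nd4l was lost with all 23 libraries in the fit as well (adjusted p = 0.0653, edgeR).

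Nuclear subunits were also lower at 12 weeks. Of 78 tested, 28 were lower in BF BSHlow mice, where 20.7% of all genes were, and 71 in BF BSHhigh mice, where 23.9% were. None was higher, and the medians were -0.33 and -0.54. Tfam was lower at 12 weeks, -0.41 (SE 0.11, adjusted p = 0.0132) and -0.46 (SE 0.08, adjusted p = 0.000925) by edgeR, while Polrmt, with -0.24 and -0.11, did not pass the test. Cs had log2 fold changes of 0.56 (SE 0.17, adjusted p = 0.0239) and 0.15 (SE 0.13, adjusted p = 0.370), so that it was higher in non-tumor colon at 12 weeks with BF BSHlow (edgeR). The comparisons with tumors and with 2 weeks share the non-tumor libraries, so their values are not independent of each other.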

How the data were processed

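RNA of 23 mouse colon libraries was analyzed in 6 groups, taken from the sample labels. Per the methods and the labels, the authors trimmed reads with cutadapt, aligned them to mm10 (GRCm38) with STAR, checked them with Picard and deposited RSEM expected counts per gene. Versions and the strand setting are not given in the sources used here. Gene identifiers and symbols were those of GENCODE M21.

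Expected counts were rounded and tested with edgeR 4.0.16 in R 4.3.3 (quasi-likelihood F test, TMM scaling, filterByExpr, Benjamini-Hochberg adjustment over all genes, adjusted p under 0.05, fold limit 1 on the log2 scale). The standard error was the log2 fold change divided by the square root of F. Comparisons of strains and of ages were fits of the groups compared, and tumor comparisons and their interaction shared a fit of 15 libraries. DESeq2 1.42.0, limma-voom (limma 3.58.1), other scalings and filters, a fit of 23 libraries, each library left out and a replicate block were the alternatives, and adding the nuclear copies, found with BLASTN 2.17.0, was an alternative chosen after seeing the data. CPM in the text uses TMM factors over 23 libraries. In simulated counts for some of the comparisons, the script recovered most known changes. These counts had the same spread setting for all genes, so the unequal spread of these libraries was not simulated. Of the deposited table, 1 gene with text in a count cell was left out. Columns 14 to 16 repeat names of BF BSHlow tumors and were used as BF BSHhigh tumors, without numbers. Chi-square per degree of freedom over genes was at least 16.6 in each of 33 replicate pairs, so no library was counted as a repeat. Named were the 15 mRNA and rRNA genes, up to 4 tRNA genes of highest mean and 14 nuclear genes, of which 1 is not reported here. The members and lists were chosen with earlier results of these data known.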

Additional observations from a re-analysis of the deposited data

Results flagged for a closer look

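In BF BSHhigh non-tumor colon, replicate 1 stood apart from its 3 fellow libraries in 8 measures, by a gap to the nearest library that was large against the range of the group (Dixon's criterion at 95%). Mitochondrial genes took 6.85% of its counts against 4.43 to 4.54% in the others, the 13 mRNAs 6.71% against 4.24 to 4.37%, and the nuclear copies 3.89% against 2.85 to 3.0%. The level of mt-Nd2 was 2703 CPM against 1697 to 1823 CPM, that of mt-Co1 40444 CPM against 21447 to 22501 CPM, and that of mt-Co2 517 CPM against 161 to 215 CPM. The level of mt-Nd4 was 5297 CPM against 3437 to 3592 CPM, and that of mt-Cytb 9242 CPM against 5707 to 6125 CPM. Its rRNA counts per 100 mRNA counts, 2.14, were the lowest of the 8 non-tumor libraries. Among 100 groups of values examined these 8 were the only ones marked, and chance marks about 1 in 20 groups. The 8 measures share the same library and reads and are not independent. Groups of 3, the BF BSHhigh tumors, were not examined.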

How the results depend on the processing

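The calls kept their direction under every alternative run. With library size scaling 3 genes in BF BSHlow and 5 in BF BSHhigh tumors were past the fold limit, in place of 11 and 11, while 13 and 13 were still lower. That scaling lifted the median of all genes. Leaving out 1 library gave 14 to 15, 13 to 14, 12 to 15 and 13 to 14 genes lower in BF BSHlow tumors, BF BSHhigh tumors, BF BSHlow 12-week and BF BSHhigh 12-week non-tumor colon, and 8 to 13, 7 to 12, 8 to 12 and 8 to 14 past the fold limit, the 7 without BF BSHhigh non-tumor replicate 1. The strain comparisons and the interaction stayed at 0. With the copies included the median shares were 17.1% and 17.5% at 2 weeks, 8.28% and 7.46% in non-tumor colon and 4.52% and 4.67% in tumors (BF BSHlow, then BF BSHhigh). The uncalled log2 fold changes between strains changed sign in 39 of 285 values at 2 weeks, 27 of 285 in non-tumor colon and 22 of 255 in tumors.

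Same-numbered libraries had correlations of their deviations between -0.23 and 0.32, not over 0.1 in every pair of any comparison, so the numbers were not taken to pair the libraries. With a replicate block, 0 genes were called between strains in non-tumor colon and 0 at 2 weeks, 15 in BF BSHlow tumors (fit of the BF BSHlow 12-week libraries), and 12 and 13 at 12 against 2 weeks in BF BSHlow and BF BSHhigh mice. In the block fit of BF BSHlow mice, mt-Rnr2 and mt-Nd2 were not called at 12 against 2 weeks (edgeR adjusted p = 0.0766 and 0.0594). No paired fit was made with BF BSHhigh tumors, whose columns carry no numbers. The cause of these differences was not tested.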
